A study of Mus musculus with 18 samples.

Results

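The genes described here are 29 rows of the count table that were listed by name as B lineage genes, out of 23365 rows, and all 29 were among the 13405 genes that passed the filter on low counts. They were followed across 18 RNA-seq libraries of erythroblasts, the nucleated precursors of red cells, isolated by flow sorting of mouse spleen. The sort took cells with both CD71, through which cells take up iron-loaded transferrin, and TER119, an erythroid surface antigen. The mice carried 3 alleles of Klf1, which encodes an erythroid zinc finger transcription factor: wild type (WT), knockout (KO) and D45, the MommeD45 missense allele, which the series title places in the linker-2 of the protein. The 5 genotypes were D45/KO (4 libraries), D45/D45 (3 libraries), WT/D45 (3 libraries), WT/KO (5 libraries) and WT/WT (3 libraries), each library being 1 mouse. D45/KO and WT/KO share a knockout allele, so a difference between them is one of the partner allele. The labels mention no treatment, strain or age. The labels name no marker used to remove other cells from the sort, and the series design describes an enlarged spleen in the compound heterozygous mice, which are D45/KO here.

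B cells read antigen through a membrane immunoglobulin that signals through the CD79A and CD79B chains, and the kinase BLK and the adaptor BLNK carry that signal into the cytoplasm. Their identity is held by the transcription factors EBF1 and PAX5. B cells also present antigen on MHC class II, whose genes are switched on by the co-activator CIITA. The white pulp of the spleen is a main home of mature B cells, whereas its red pulp holds the erythroblasts and macrophages.

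Library totals had a median of 29.8 M, where M stands for 1e+06 counts, and a range of 9.36 M (WT/KO replicate 3) to 56.3 M (WT/D45 replicate 1). Levels are given as CPM, counts per 1e+06 of the library size after TMM scaling. A count of 0 allowed a level of up to 0.0283 CPM in the deepest library and 0.349 CPM in WT/WT replicate 3, counting error only. In D45/KO replicate 2 and D45/D45 replicate 1, 99.9% and 99.8% of the counts from 1 to 40 were even, against 57.3% to 80.1% in the other 16 libraries. Halving the counts of those 2 libraries changed no call of a B lineage gene. The mouse numbers in the labels fall into a lower run of 7 mice, all under 200, and a higher run of 11, all over 200, which the labels do not call a batch. The numbers under 200 belong to D45/KO replicates 1 and 3, replicate 1 of D45/D45, WT/D45 and WT/WT, and WT/KO replicates 1 and 3. Klf1 itself was at 282 to 763 CPM in D45/KO, 710 to 1580 CPM in D45/D45, 551 to 1300 CPM in WT/D45, 158 to 834 CPM in WT/KO and 452 to 1050 CPM in WT/WT, and the labels do not give which part the knockout allele removes. Erythroblast markers were present in every library, with the transferrin receptor gene Tfrc at 711 to 4640 CPM and the band 3 gene Slc4a1 at 5290 to 35600 CPM.

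Summed over the 29 genes, D45/KO libraries held 813, 3010, 687 and 53.8 CPM. D45/D45 libraries held 2250, 85.7 and 103 CPM, and WT/D45 libraries 3640, 164.2 and 42.1 CPM. WT/KO libraries held 5330, 5360, 6330, 133 and 60.8 CPM, against 3170, 180 and 359 CPM in WT/WT libraries. The highest library of every genotype was thus at 2250 CPM or more and the lowest at 180 CPM or less, and the ranges of all 5 genotypes overlapped. In these bulk samples, fewer cells of a type and less RNA per cell cannot be told apart.

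**Figure D1:**
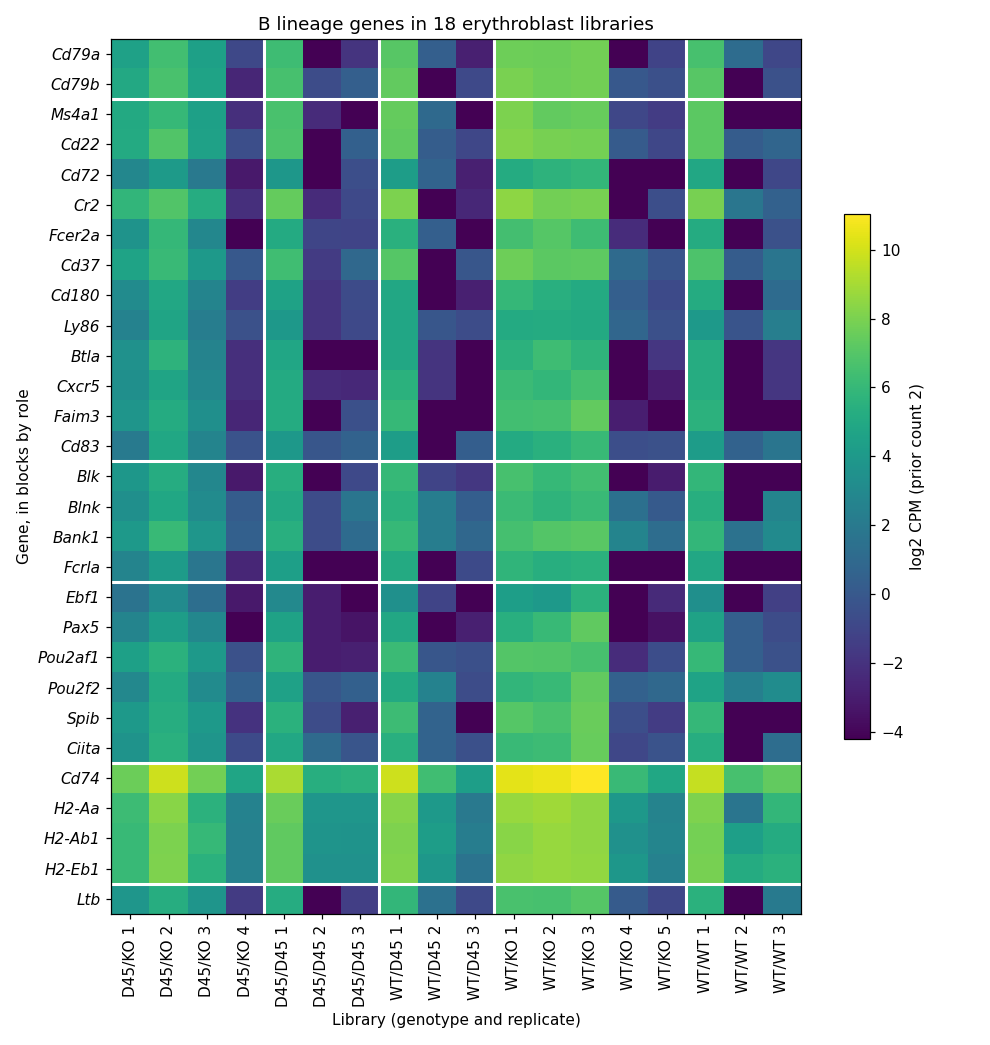
Level of each of the 29 B lineage genes (down the page, in blocks by role) in each of the 18 libraries (across, by genotype and replicate), as log2 CPM with a prior count of 2. Nearly all genes are bright or dark in the same columns, and Cd74 and the H2 genes keep colour in the columns where the others are dark.

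The 2 receptor signalling chains are markers of the whole B lineage. Cd79a was at 23.0, 85.2, 22.0 and 0.49 CPM in D45/KO, at 80.6, 0 and 0.209 CPM in D45/D45 and at 136, 1.28 and 0.0827 CPM in WT/D45. Its levels in WT/KO were 206, 195, 219, 0 and 0.402 CPM, against 97.9, 2.22 and 0.466 CPM in WT/WT. The highest 3 libraries were all WT/KO, and so was one of the pair with no read. Counts behind these levels ran from 253 to 21745 in the 9 highest libraries and from 0 to 28 in the others. Cd79b was at 32.5, 100, 24.4 and 0.115 CPM in D45/KO, at 96.0, 0.572 and 1.25 CPM in D45/D45 and at 163.7, 0 and 0.496 CPM in WT/D45. Its levels in WT/KO were 253, 201, 223, 0.934 and 0.67 CPM, against 136, 0 and 0.699 CPM in WT/WT. The groups overlapped for both chains, and the 9 highest libraries were the same for both.

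Among 12 genes of surface receptors and co-receptors, Ms4a1, which encodes the CD20 antigen, was at 32.7, 64.3, 21.7 and 0.173 CPM in D45/KO, at 102, 0.143 and 0 CPM in D45/D45 and at 169.4, 1.92 and 0 CPM in WT/D45. Its levels in WT/KO were 258.7, 167, 183, 0.467 and 0.301 CPM, against 148, 0 and 0 CPM in WT/WT. No genotype stood clear of another, and 4 libraries had no read of it. Cr2, the complement receptor CD21, reached the highest level of the 12, with 347 CPM in WT/KO replicate 1. Cd22 and Cd37, an inhibitory lectin and a tetraspanin, reached 295 and 202 CPM in the same library. Fcer2a (CD23), Btla (an inhibitory receptor), Cxcr5 (the chemokine receptor that guides B cells to follicles), Faim3 (the IgM Fc receptor) and Cd72 (an inhibitory co-receptor) peaked between 57.9 and 163.4 CPM. Cd180 and Ly86, which form a surface complex related to the toll-like receptors, peaked at 60.4 and 35.9 CPM. Cd83, an activation marker, peaked at 68.0 CPM. Faim3 had no read in 6 libraries and Btla in 5, whereas Ly86 had reads in all 18.

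Of the 4 cytoplasmic signalling genes, Bank1, a scaffold protein gene, peaked at 141 CPM and was the only one with reads in every library. Blk peaked at 96.5 CPM and Blnk at 73.8 CPM, both in WT/KO replicate 1. Fcrla, an intracellular Fc receptor-like protein, peaked at 55.2 CPM and had no read in 7 libraries, the most of the 29 genes. Ltb, the membrane ligand lymphotoxin beta, which B cells use to shape follicles, reached 127 CPM in WT/KO replicate 3 and had no read in 2 libraries.

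Of the 6 genes of transcription, Pax5 was at 6.36, 19.2, 7.04 and 0 CPM in D45/KO, at 24.1, 0.0714 and 0.0417 CPM in D45/D45 and at 30.2, 0 and 0.0827 CPM in WT/D45. Its levels in WT/KO were 43.4, 65.5, 157, 0 and 0.0335 CPM, against 23.9, 1.27 and 0.583 CPM in WT/WT. WT/KO replicate 3 stood above all other libraries for Pax5, by more than it did for Cd79a. It was also the highest library for Ebf1 (47.1 CPM), Pou2f2 (the octamer factor Oct-2, 165 CPM), Spib (an ETS factor, 185 CPM) and Ciita (181 CPM). Pou2af1, the co-activator of octamer factors, was highest in WT/KO replicate 1 at 123 CPM.

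The class II group was the most abundant. Cd74, the invariant chain that escorts class II molecules, was at 198, 934, 224 and 26.4 CPM in D45/KO, at 542, 40.1 and 47.5 CPM in D45/D45 and at 937, 83.8 and 20.3 CPM in WT/D45. Its levels in WT/KO were 1340, 1540, 2110, 70.9 and 29.5 CPM, against 821, 99.0 and 166.1 CPM in WT/WT. Unlike the receptor chains, it had reads in every library. H2-Aa, a class II alpha chain, was at 76.8, 323, 47.2 and 5.86 CPM in D45/KO, at 184, 13.9 and 14.2 CPM in D45/D45 and at 306, 15.8 and 3.89 CPM in WT/D45. Its levels in WT/KO were 417, 463, 359, 15.1 and 6.09 CPM, against 269, 3.17 and 58.3 CPM in WT/WT. WT/WT replicate 2 was the lowest of all 18 libraries, and WT/WT replicate 3 lay above D45/KO replicate 3. H2-Ab1 and H2-Eb1, the class II beta chains, reached 419 and 405 CPM in WT/KO replicate 2 and were never below 4.63 and 2.98 CPM.

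**Figure D2:**
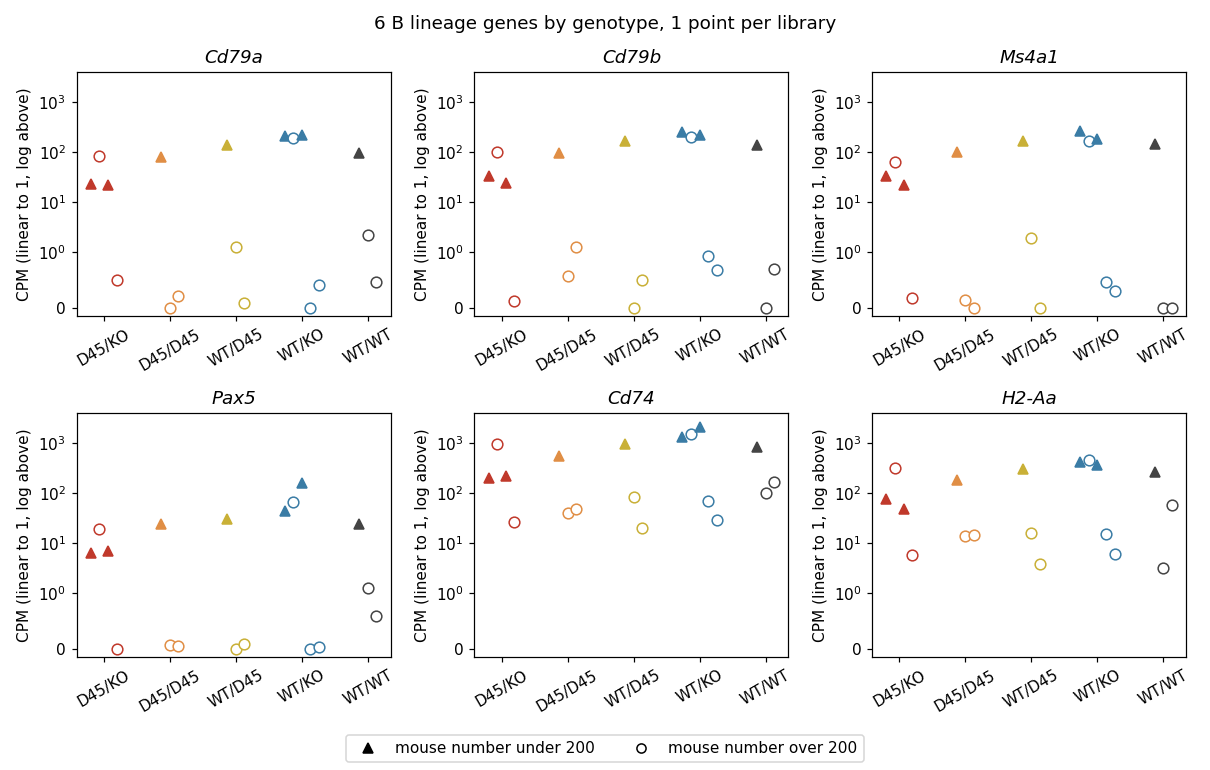
CPM of 6 B lineage genes (vertical axis, linear up to 1 and logarithmic above) by genotype, with 1 point per library; triangles are mice numbered under 200 and circles mice numbered over 200. Triangles lie above all circles except those of D45/KO replicate 2 and WT/KO replicate 2 and, for H2-Aa, that of WT/WT replicate 3.

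Divided by exon length, the 4 class II genes ranked above the other 25 in each of the 18 libraries, with Cd74 first in all 18. On the scale of CPM per kilobase of exon, Cd74 had a median level of 129 over the 18 libraries, H2-Aa 46.8, H2-Ab1 41.2 and H2-Eb1 27.5. Cd79b (8.96) and Cd79a (8.31) came next, and Pax5 (0.477) and Ebf1 (0.24) were last. These medians lie between high and low libraries and describe the order of genes only. The class II genes made up 45.8% of the summed CPM of the 29 genes in WT/KO replicate 1 and 90.9% in D45/D45 replicate 2.

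The 4 promoters below are shown because their genes were high in largely the same libraries and each holds the motif of a factor family that acts in B cells. Sequences are from RefSeq, on build GRCm38.p6, 250 bases before the annotated start, on the gene's strand, with the motif in capitals. H2-Aa (chr17:34287824-34288073, minus strand) and H2-Eb1 (chr17:34305617-34305866, plus strand) hold the Y box, which belongs to the class II promoter module. Cd22 (chr7:30879029-30879278, minus strand) holds a palindrome known for EBF1, and Blnk (chr19:40994222-40994471, minus strand) an octamer on the opposite strand.
H2-Aa: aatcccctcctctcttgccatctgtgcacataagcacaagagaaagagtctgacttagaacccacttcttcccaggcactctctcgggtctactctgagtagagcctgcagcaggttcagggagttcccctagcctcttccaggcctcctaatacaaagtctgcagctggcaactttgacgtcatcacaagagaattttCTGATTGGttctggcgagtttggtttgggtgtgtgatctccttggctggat
H2-Eb1: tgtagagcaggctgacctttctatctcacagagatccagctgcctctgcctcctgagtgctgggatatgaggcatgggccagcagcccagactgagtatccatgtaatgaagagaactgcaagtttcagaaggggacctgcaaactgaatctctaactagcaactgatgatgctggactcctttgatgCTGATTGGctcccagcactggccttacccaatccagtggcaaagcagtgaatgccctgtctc
Cd22: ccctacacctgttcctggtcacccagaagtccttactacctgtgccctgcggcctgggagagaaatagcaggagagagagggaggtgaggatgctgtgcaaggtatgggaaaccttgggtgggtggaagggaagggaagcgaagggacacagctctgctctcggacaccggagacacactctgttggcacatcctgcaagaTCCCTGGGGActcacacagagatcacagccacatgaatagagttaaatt
Blnk: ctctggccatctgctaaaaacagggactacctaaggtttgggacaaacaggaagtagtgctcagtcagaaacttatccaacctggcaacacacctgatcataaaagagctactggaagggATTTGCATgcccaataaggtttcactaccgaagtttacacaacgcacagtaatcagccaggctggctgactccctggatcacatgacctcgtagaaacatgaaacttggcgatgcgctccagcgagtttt
Of the 29 genes, 21 matched the promoter table, and 5 motifs were searched on both strands; none was allowed a mismatch. The Y box (CTGATTGG) was in the windows of H2-Aa, H2-Eb1 and Fcer2a and in 3.83% of all 32851 windows of that length. The octamer (ATGCAAAT) was in that of Blnk and in 1.6% of all windows, and the EBF1 motif (TCCC, any 2 bases, GGGA) in that of Cd22 and in 0.779%. The PU box (GAGGAAGT) was in those of Btla, Cd37 and Cd72 and in 2.44%, and the NF-kB motif (GGGA, any base, TTTCC) in that of Ltb and in 0.356%. A match describes the letters of a window and is not a measured binding site.

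Ranked by Cd79a, the 9 highest libraries were WT/KO replicates 3, 1 and 2, then WT/D45 replicate 1, WT/WT replicate 1, D45/KO replicate 2, D45/D45 replicate 1, and D45/KO replicates 1 and 3. For 24 of the other 28 genes the same 9 libraries were the highest, against 6.36% of the genes tested (852 of 13405). The 4 that differed were Ly86, Pou2f2, H2-Aa and H2-Eb1, and in each of them WT/WT replicate 3 took a place among the 9 highest. That library held 4.89 CPM of Ly86, 9.09 CPM of Pou2f2, 58.3 CPM of H2-Aa and 46.4 CPM of H2-Eb1. All 29 genes had reads in each of the 9 highest libraries, whereas 2 to 15 of them had no read in each of the others, with 15 in WT/WT replicate 2. WT/WT replicate 2 also had reads of the fewest genes in the whole count table, 9968, at a total of 20.7 M. The next lowest, WT/KO replicate 3, had reads of 11872 genes at 9.36 M. The 9 highest libraries are ranked by an outcome and were not tested as a group.

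Other genes of B cell pathways followed the same order in part. Of 18 genes of B receptor signalling, 12 had the same 9 highest libraries, among them Ptpn6, a phosphatase of inhibitory receptors. Of 14 further class II presentation genes, 7 did, including H2-DMa, H2-DMb2 and Cd40. Of 9 follicular and marginal zone genes, 7 did, including the homing receptor Ccr7 and the marginal zone receptor Notch2. Of 7 plasma cell genes, Irf4 and Mzb1 did, and of 5 germinal centre and 3 early B cell genes none did. The 7 immunoglobulin genes on the list were not analysed here. In the 7 comparisons below, 1 gene of these B cell lists was called, Dapp1, an adaptor of receptor signalling, which was higher in D45/KO than in WT/WT.

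Markers of other cells were set beside these levels. None of the 11 macrophage genes, 7 dendritic cell, 7 NK cell, 7 neutrophil and 5 megakaryocyte genes had the same 9 highest libraries as Cd79a, and 1 of 12 T cell genes did (Cd2). A gene misses this rule if 1 library differs. Summed, the dendritic cell list was highest, at 20.1 to 60.8 CPM, in libraries that were all among the 9 high in Cd79a. Of those 9, D45/KO replicates 1 and 3 held 14.2 and 7.74 CPM, below the 17.3 CPM of WT/D45 replicate 2. The summed macrophage list ran from 83.8 to 2550 CPM in D45/KO, 79.8 to 184 CPM in D45/D45, 74.4 to 205 CPM in WT/D45, 102 to 2310 CPM in WT/KO and 214 to 412 CPM in WT/WT. The 3 highest macrophage sums, from 1470 to 2550 CPM, were found in D45/KO replicate 2 and WT/KO replicates 2 and 3, all of them among the 9 libraries high in Cd79a. The summed T cell list ran from 7.3 to 40.3 CPM in D45/KO, 16.5 to 34.1 CPM in D45/D45, 16.5 to 50.1 CPM in WT/D45, 14.0 to 123 CPM in WT/KO and 28.4 to 48.4 CPM in WT/WT. Its highest sums, from 40.3 to 123 CPM, were also in libraries high in Cd79a, against 36.4 CPM in WT/WT replicate 3. D45/D45 replicate 1 and D45/KO replicates 1 and 3, also among the 9, held 34.1, 15.1 and 20.3 CPM. Lck, a kinase of T cell receptor signalling, was called lower in D45/KO than in WT/WT, the one T cell gene called in the 7 comparisons. It had reads in every library, from 6.32 CPM to 28.2 CPM in WT/WT replicate 2. Cd3e, a signalling chain of the T cell receptor complex, was at 0 in 3 libraries and at most 4.72 CPM. WT/WT replicate 2 was among those at 0, and Cd3d and Cd3g were at 0 there too. The call of Lck is thus that of 1 gene and does not describe the T cell list. For 7 of 10 erythroblast genes the 9 libraries highest in Cd79a were the 9 lowest, against 6.06% of the genes tested, and the summed list ran from 12200 CPM in WT/KO replicate 1 to 109000 CPM in WT/WT replicate 3. The part of these cell types in the levels of B lineage genes was not tested.

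**Figure D3:**
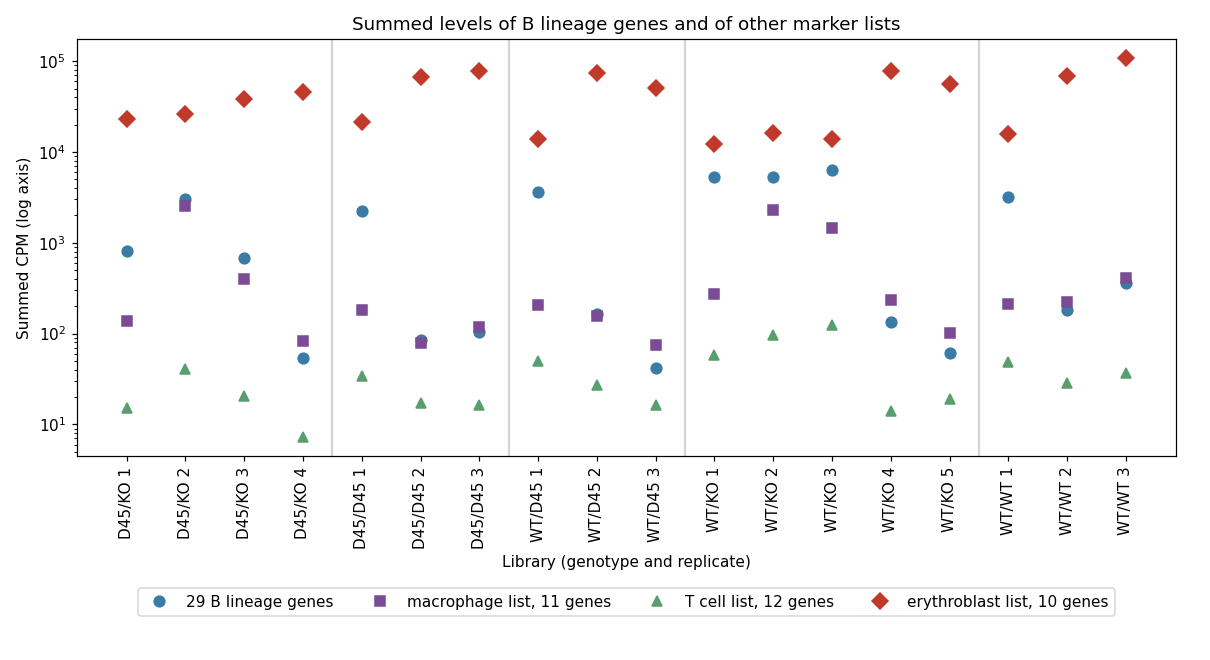
Summed CPM (logarithmic vertical axis) of the 29 B lineage genes and of the macrophage, T cell and erythroblast lists in each of the 18 libraries, by genotype. The B lineage sum spans 42.1 to 6330 CPM, and in WT/KO replicates 1 to 3, where it is highest, the erythroblast sum lies between 12200 and 16200 CPM, against up to 109000 CPM in WT/WT replicate 3.

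Within the 9 libraries with more than 20 CPM of Cd79a, the genes differed in how closely they followed Cd79a. The log2 ratio of Cd79b to Cd79a lay between 0.03 and 0.50, with an SD of 0.16 over the 9 libraries. Those of Ltb and Cd22 had SDs of 0.19 and 0.20. The widest were Pax5 (SD 0.54), Pou2f2 (0.50), Btla (0.50) and Ciita (0.45). For Pax5 the ratio ran from -2.24 in WT/KO replicate 1 to -0.48 in WT/KO replicate 3. Those 2 libraries had nearly equal Cd79a, 1.06-fold apart, yet Pax5 was 3.62-fold higher in replicate 3, Pou2f2 2.95-fold, Ciita 2.57-fold and Ebf1 2.33-fold. At the other end, Cd180 in replicate 3 was at 0.581 of its level in replicate 1, Cr2 at 0.686 and Ms4a1 at 0.707. Relative to Cd79a, the class II genes were highest in D45/KO replicate 2, where the log2 ratio was 3.45 for Cd74 and 1.92 for H2-Aa. The macrophage sum, at 2550 CPM, was also highest in that library, and its part in this ratio was not tested.

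**Figure D4:**
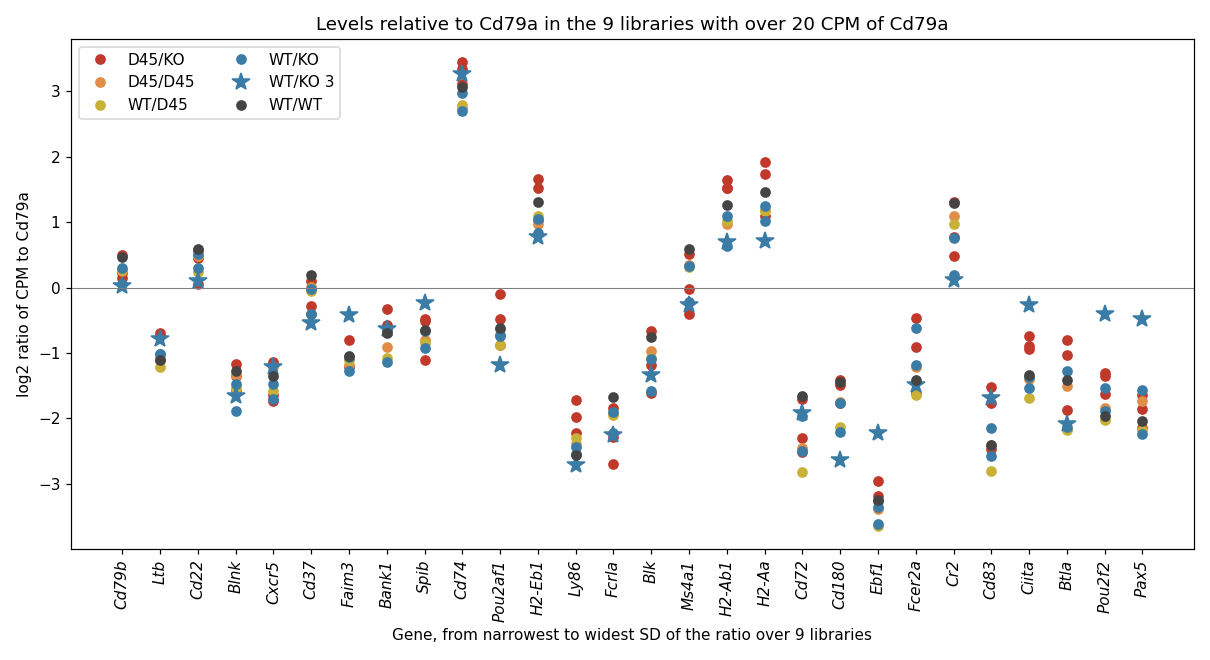
Log2 ratio of each gene's CPM to that of Cd79a in the 9 libraries with more than 20 CPM of Cd79a, with genes ordered across by the SD of the ratio; colours are genotypes and the star is WT/KO replicate 3. The star lies above all other points for Pax5, Pou2f2, Ciita and Ebf1.

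The first comparison set the compound genotype against carriers of the knockout allele. In D45/KO against WT/KO, edgeR's quasi-likelihood test called none of the 29 genes (threshold 0.05 after Benjamini-Hochberg adjustment over all genes), where 0.172% of all genes tested were called. At an unadjusted p under 0.05 the count was also 0, against 5.41% of all genes. DESeq2 called none of the 29 (1.38% of all genes), nor did limma-voom (0.5%). All 29 fitted log2 fold changes were below 0, with a median of -1.79 against -0.15 over all genes tested. They ran from -2.70 for Pax5 to -1.10 for Btla, with SEs from 1.32 to 2.34, and the smallest unadjusted p was 0.135, for Pou2f2. The value for Cd79a was -1.92 ± 2.16 (SE, n = 4 and 5), and for Ms4a1 -2.04 ± 2.34, for Pax5 -2.70 ± 2.21, for Cd74 -1.56 ± 1.32 and for H2-Aa -1.15 ± 1.46, each with an edgeR adjusted p of 0.927. D45/KO replicate 4 and WT/KO replicates 4 and 5 were all low, so for none of the 29 genes did the groups separate, against 2.71% of all genes.

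Within mice numbered under 200 the comparison was refitted to 7 libraries, 2 of D45/KO, 2 of WT/KO and 1 of each other genotype, a setting chosen after the values had been seen. All 29 genes were called lower in D45/KO than in WT/KO by edgeR, where 18.4% of 13952 genes were called and 10.9% were called lower. The 29 genes were high in largely the same libraries, so these calls are not 29 separate observations. They rest on 1 difference between 2 mice and 2 mice. The median log2 fold change was -3.03, from -3.86 for Pax5 to -2.35 for H2-Ab1, and the adjusted p ran from 1.6e-14 to 7.82e-06. Cd79a fell by 3.21 ± 0.42 on the log2 scale (SE, edgeR adjusted p = 1.07e-11), with 23.0 and 22.0 CPM in D45/KO against 206 and 219 CPM in WT/KO. In both D45/KO libraries all 29 genes were lower than in both WT/KO libraries, against 31.6% of genes tested, and lower than in all 5 libraries of the other genotypes, against 20.6%. Against WT/WT in the same mice, 28 genes were called lower (as were 3.21% of all genes), all but Ly86, with a median of -2.16. Against D45/D45, 12 were called lower (0.53%), with a median of -1.62, and these 2 contrasts rest on 1 library each of WT/WT and D45/D45, assumed to vary like the D45/KO and WT/KO pairs.

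Some lists of markers of other cells also differed between the same libraries. The macrophage sums overlapped, at 138 and 398 CPM in D45/KO against 272 and 1470 CPM in WT/KO. The T cell sum was 15.1 and 20.3 CPM in D45/KO against 58.3 and 123 CPM in WT/KO. The dendritic cell sum was 14.2 and 7.74 CPM in D45/KO against 46.3 and 60.8 CPM in WT/KO, and the NK cell sum 5.79 and 2.61 CPM in D45/KO against 10.4 and 14.8 CPM in WT/KO. The neutrophil sums overlapped too, at 64.2 and 20 CPM in D45/KO against 53.1 and 23.0 CPM in WT/KO. In the other direction, the megakaryocyte sum was 362 and 434 CPM in D45/KO against 39.6 and 34.9 CPM in WT/KO. Most of that sum in D45/KO was Itga2b, at 324 and 405 CPM against 27 and 18.8 CPM in WT/KO. Gp9 was at 36 and 26.7 CPM in D45/KO against 11.3 and 7.67 CPM in WT/KO. Pf4, Ppbp and Gp1ba overlapped between these libraries and were at most 1.74 CPM in the D45/KO pair. The erythroblast sum was 23200 and 38500 CPM in D45/KO against 12200 and 13900 CPM in WT/KO. Their part in the result was not tested. In mice numbered over 200, edgeR called 0 of the 29 genes in D45/KO against WT/KO (0% of all genes; 0 of the 29 at an unadjusted p under 0.05), and the median log2 fold change was -0.46, with Cd79a at 85.2 and 0.49 CPM in D45/KO and 195, 0 and 0.402 CPM in WT/KO.

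**Figure D5:**
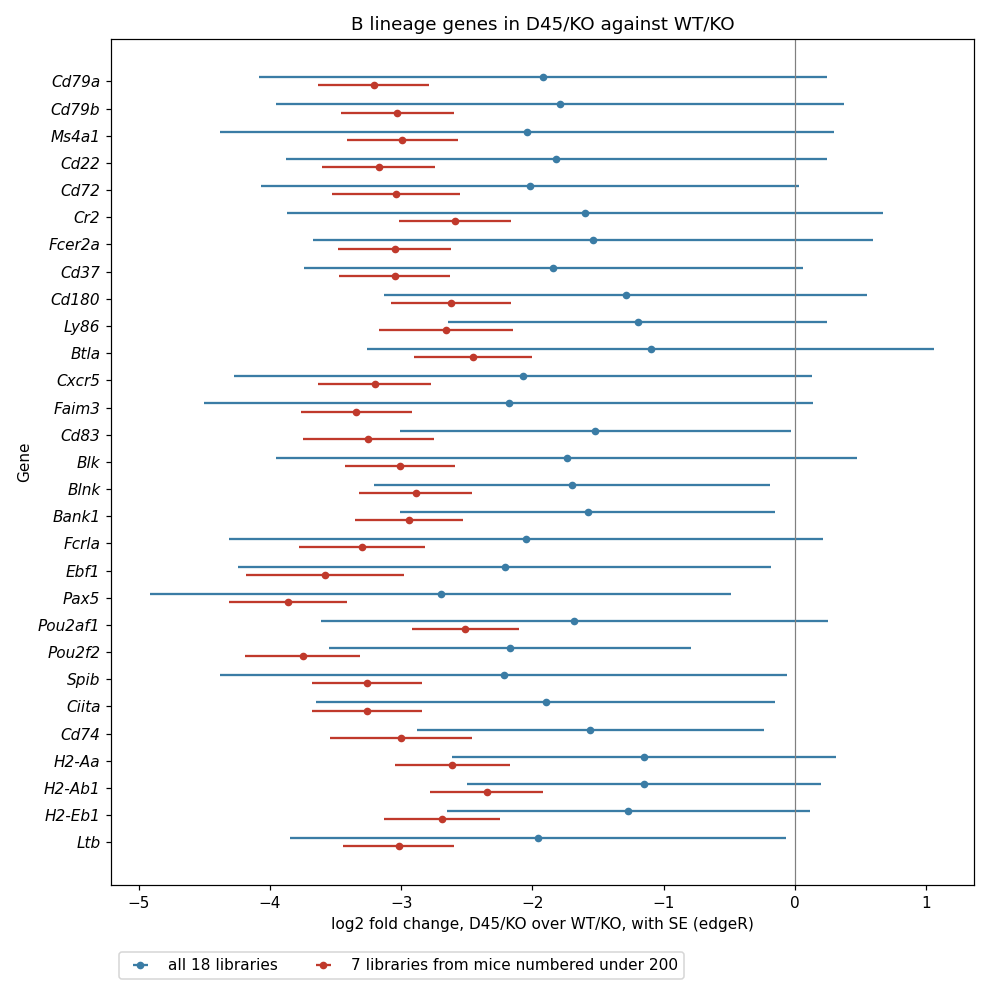
Log2 fold change of D45/KO over WT/KO for each of the 29 genes with its SE (horizontal axis), fitted by edgeR to all 18 libraries (upper point of each pair) or to the 7 libraries of mice numbered under 200 (lower point). All points lie below 0, and the lower points, with medians of -3.03 against -1.79, have shorter bars.

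The next comparison set heterozygous knockout carriers against wild type. In WT/KO against WT/WT none of the 29 genes was called by edgeR, as was none of all genes tested (0%), and none had an unadjusted p under 0.05, against 4.27% of all genes. All 29 log2 fold changes were above 0, with a median of 1.57 against 0.26 over all genes. They ran from 0.99 for Cr2 to 2.61 for Pax5, with SEs from 1.47 to 2.58. Cd79a had a value of 1.88 ± 2.41 (SE, n = 5 and 3, edgeR adjusted p = 0.82), and Pax5 2.61 ± 2.47 (adjusted p = 0.818). Ms4a1 had 1.30 ± 2.52 (adjusted p = 0.861), Cd74 1.49 ± 1.47 (0.818) and H2-Aa 1.20 ± 1.62 (0.825). In mice numbered under 200, with 1 WT/WT library, the median was 0.72, none was called (0.337% of all genes) and 11 had an unadjusted p under 0.05. In mice numbered over 200 the median was 5.01 and none was called (0%). There 4 had an unadjusted edgeR p under 0.05. The share of all genes under that unadjusted limit was not taken in either range of mouse numbers. Neither count at the unadjusted limit therefore has a background. In the authors' deposited table, whose log2 fold changes run the other way, WT/WT over WT/KO, 26 of the 29 genes were below 0 and 3 above. Those values of the authors' deposited table ran from -3.32 for Faim3 to 0.87 for Cr2, with adjusted p-values from 0.862 to 0.995.

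The remaining comparisons addressed the D45 allele. In D45/KO against WT/WT no gene of the 29 was called by edgeR (0.619% of all genes were), and the median log2 fold change was -0.08 against 0.07 over all genes, with 9 above 0 and 20 below. In D45/KO against D45/D45 no gene was called (0.00746%), and the median was 0.38 against 0.06, with 25 above 0. D45/D45 against WT/WT gave no call (0%), a median of -0.47 against 0.01, and all 29 below 0. WT/D45 against WT/WT gave no call (0%), a median of 0.15 against 0.10, and 21 above 0. With the replicate number as a block, the median was -0.69 in D45/D45 against WT/WT, with 2 above 0 and 0.0746% of all genes called. In WT/D45 against WT/WT it turned to -0.17, with 11 above 0 and 0% of all genes called. Again none of the 29 was called in these last 2 comparisons. These comparisons share the WT/WT or the D45/KO libraries, so their signs are not separate observations. The difference of differences, D45/KO minus WT/KO less WT/D45 minus WT/WT, had a median of -1.89 against -0.26, and no gene of the 29 was called (0.00746%). In mice numbered under 200, 27 of the 29 were called lower in that contrast (as were 2.54% of all genes), all but Cd72 and Btla, in a contrast that rests on 1 library each of WT/D45 and WT/WT. With the mouse-number range as a term in the fit to all libraries, the median was -0.88 in D45/KO against WT/KO, 2.37 in D45/KO against WT/WT, 3.13 in D45/KO against D45/D45 and 3.41 in WT/KO against WT/WT, and none of the 29 was called. With genotype alone in the fit to all libraries, no gene of the 29 had an unadjusted p under 0.05 in any of these 5 comparisons. The shares of all genes that did were 8.93% in D45/KO against WT/WT, 2.26% in D45/KO against D45/D45, 4.07% in D45/D45 against WT/WT, 1.45% in WT/D45 against WT/WT and 2.45% in the difference of differences.

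The direction of several medians rested on 1 library. Leaving out WT/WT replicate 1, the only WT/WT library with more than 20 CPM of Cd79a, moved the median to 4.41 in D45/KO against WT/WT, to 4.03 in D45/D45 against WT/WT and to 4.58 in WT/D45 against WT/WT. Leaving out D45/D45 replicate 1 moved it to 5.39 in D45/KO against D45/D45 and to -5.45 in D45/D45 against WT/WT. Without WT/D45 replicate 1 it was -4.88 in WT/D45 against WT/WT and 2.96 in the difference of differences. WT/KO against WT/WT had a median of 6.08 without WT/WT replicate 1, and the difference of differences one of -6.35. Without D45/KO replicate 2 D45/KO had a median of -1.19 over WT/WT and of -0.69 over D45/D45. In D45/KO against WT/KO it stayed below 0 with each library left out, between -2.84 and -1.38, and no gene of the 29 was called in any of these fits.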

How the data were processed

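Per the labels, Trizol was used for extraction and a Swift Rapid RNA kit for the libraries. HISAT2, featureCounts, limma and the build mm9 are named in the submitters' processing notes, without versions. The sources used here do not say if counting used strand, so antisense and overlapping reads cannot be separated. The deposited table holds raw counts per gene symbol, and the authors' deposited table adds CPM values (not used here), log2 fold changes and p-values for WT/WT over WT/KO.

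Genotypes in the labels gave the groups, whose replicates are biological per the series design. edgeR 4.0.16 under R 4.3.3 was run on the counts (filterByExpr by genotype, TMM, quasi-likelihood fit of all 18 libraries on genotype alone, robust option off), with Benjamini-Hochberg adjustment over all 13405 genes. The script was first tested on simulated data. DESeq2 1.42.0 and limma-voom (limma 3.58.1), other scalings, no filter, the replicate number as a block, the mouse-number range as a term and each library left out were alternatives. The SE is the log2 fold change divided by the square root of its F statistic and is approximate. Log2 CPM used a prior count of 2, and exon lengths came from GENCODE M21.

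The genes and marker lists were chosen with earlier results of these data known. The text gives values in every library for Cd79a, Cd79b, Ms4a1, Pax5, Cd74 and H2-Aa, and fold changes for 5 of them. Other genes are given by range, with list genes named where highest or called; Ptpn6 and the other list examples were partly chosen after their values were seen, and some list genes are not reported here. Deviations of same-numbered libraries from their group means correlated at 0.71, 0.35 and 0.19 in D45/D45 against WT/WT. The values were 0.71, 0.22 and 0.12 in WT/D45 against WT/WT and 0.44, 0.63, 0.05 and 0.63 in D45/KO against WT/KO. In the other comparisons they lay between -0.44 and 0.66. The labels name no pairing. In D45/D45, WT/D45 and WT/WT only replicate 1 was a mouse numbered under 200, so these correlations cannot show that the numbers pair the libraries. The values reported come from the fit without the block, and the blocked ones stand beside them.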

Additional observations from a re-analysis of the deposited data

How the results depend on the processing

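Outside the fit to mice numbered under 200, none of the 29 B lineage genes was called in any of the 7 comparisons under the alternatives run. Counts and medians moved beyond their limits in 17 cases, given here, and kept within them in 283. A median counted as kept if it moved by less than 3.79 on the log2 scale, the pooled SD given below. A shift from -0.08 to 3.53 under the replicate block, in D45/KO against WT/WT, was therefore kept. Counts that stayed at 0 were kept too, so the 283 do not show that medians held still. Of the fold changes of 5 genes, 210 kept their direction and side of the threshold and 5 passed it, all in mice numbered under 200. Fitted to those 7 libraries, 29 genes were called in D45/KO against WT/KO, 28 against WT/WT, 12 against D45/D45 and 27 in the difference of differences, the last 3 with single libraries in at least 1 group. In mice numbered over 200 the median was 4.56 in D45/KO against WT/WT and 5.79 against D45/D45. With the replicate number as a block, D45/KO had a median of 4.35 over D45/D45 and of 3.53 over WT/WT. WT/KO had a median of 5.65 over WT/WT. In these fits 25, 15 and 29 genes had an unadjusted edgeR p under 0.05. The share of all genes under that limit was not taken there, so these counts have no background. The block changed no call, and same-numbered libraries share only a number, as the labels name no pairing. With 1 library left out, medians ran from -2.84 to -1.38 in D45/KO against WT/KO, -1.19 to 4.41 against WT/WT and -0.69 to 5.39 against D45/D45. They ran from -5.45 to 4.03 in D45/D45 against WT/WT, -4.88 to 4.58 in WT/D45 against WT/WT, 1.04 to 6.08 in WT/KO against WT/WT and -6.35 to 2.96 in the difference of differences. The cause was not tested. The pooled SD of the genes' mean log2 CPM within genotypes was 3.79, which limits what 3 to 5 libraries can show.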

Other observations

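Several list genes differed in level between replicates. Klf2, a regulator of lymphocyte trafficking, was at 54.8 CPM in WT/KO replicate 3 and 21.9 CPM in WT/KO replicate 1. Cd93, a receptor of immature B cells that myeloid and endothelial cells also carry, was at 15.3 CPM in WT/KO replicate 3, against at most 3.9 CPM in any other library. Igj, the joining chain of secreted immunoglobulin, was at 137, 50.8, 183, 4.98 and 13.9 CPM in WT/KO, against 125, 43.1 and 52.4 CPM in WT/WT. Gzma, a granule protease of NK cells, was at 23.9 CPM in WT/KO replicate 2 and at most 5.34 CPM elsewhere.

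None of 60 sets of values examined held a library beyond Dixon's limit. The genotypes behind these sets are not given here, so the count does not show that no library stood apart. For Cd79a, the highest D45/D45 library was at 80.6 CPM, against 0 and 0.209 CPM in the others. In WT/D45 it was at 136 CPM, against 1.28 and 0.0827 CPM, and in WT/WT at 97.9 CPM, against 2.22 and 0.466 CPM.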
